A study of Mus musculus with 4 samples.

Results

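The oligoadenylate synthetase (OAS) family of the mouse was followed through the cells of subcutaneous Lewis lung carcinoma (LLC) tumors by 6 genes, Oas1a, Oas1g, Oas2, Oas3, Oasl1 and Oasl2. They were taken by symbol from the 18605 genes that the count tables of all 4 libraries list. The family was chosen because of its values in irradiated against unirradiated tumors, with Oas3 of macrophages as the reason given, so every difference between those groups is a description here and carries no test. Whole dissociated tumors were read by single-cell RNA sequencing with a SeekOne MM 3′ kit, which counts the RNA molecules of a gene in a cell by unique molecular identifiers (UMIs). LLC is a lung carcinoma cell line of the mouse. It was grown under the skin of C57/BL6N mice of 6 to 8 weeks, a strain that the authors write as C57BL/6N. In the radiotherapy group (RT) tumors received 24 Gy in 3 fractions of 8 Gy on days 7 to 9 after the injection of cells, and the control group (NT) received mock treatment. Tumors were taken 72 h after treatment. NT is 1 library of 3 pooled tumors. RT holds 3 libraries named RT1 to RT3, and each came from 1 tumor. All tumors came from the same cell line, and the labels name no genetic change of the mice.

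OAS enzymes bind double-stranded RNA and then join ATP into short chains of adenylate. These chains act as a second messenger of the antiviral response. Interferons induce most of the family, which is why its RNA is widely read as part of the interferon response, and macrophages and monocytes are known to express it. Oas1a, Oas1g, Oas2 and Oas3 encode synthetases that differ in how many synthetase units the protein holds, with Oas3 the largest. Oasl2 encodes a synthetase-like protein with ubiquitin-like domains that is enzymatically active in the mouse. Oasl1 encodes a like protein without that activity, known to hold back the translation of the Irf7 messenger.

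All 6 genes lie on chromosome 5, in a pair of neighborhoods of the RefSeq annotation. Oasl2 and Oasl1 are next to each other, and elsewhere Oas2 and Oas3 are followed by a run of Oas1 genes with Oas1g and Oas1a among them. RefSeq's promoter table on assembly GRCm38.p6, which was used for sequences only, held 5 of the 6 genes, without Oas2. The 120 bases before each gene's start are shown because they differ among the members in the letters of the interferon-stimulated response element. Capitals mark the letters GAAANNGAAA, where N is any base, which were searched on both strands of a window from 250 bases before the start to 50 after it. The windows lie at chr5:120907526-120907645 on the minus strand (Oas1a), chr5:120887614-120887733 on the minus strand (Oas1g), chr5:120777660-120777779 on the minus strand (Oas3), chr5:114923120-114923239 on the plus strand (Oasl1) and chr5:114896814-114896933 on the plus strand (Oasl2).
Oas1a: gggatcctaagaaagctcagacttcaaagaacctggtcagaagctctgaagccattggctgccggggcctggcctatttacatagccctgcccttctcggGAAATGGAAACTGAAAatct
Oas1g: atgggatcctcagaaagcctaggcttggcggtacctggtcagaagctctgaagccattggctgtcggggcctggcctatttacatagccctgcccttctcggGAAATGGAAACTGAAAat
Oas3: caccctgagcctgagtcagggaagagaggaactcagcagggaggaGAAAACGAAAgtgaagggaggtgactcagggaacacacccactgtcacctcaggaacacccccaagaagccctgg
Oasl1: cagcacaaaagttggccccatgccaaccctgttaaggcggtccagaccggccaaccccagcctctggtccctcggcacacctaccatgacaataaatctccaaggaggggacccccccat
Oasl2: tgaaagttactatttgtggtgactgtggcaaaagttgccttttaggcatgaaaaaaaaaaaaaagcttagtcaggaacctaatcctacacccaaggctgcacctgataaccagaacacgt

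The letters occurred in 1131 of 32851 promoters of the same length, or 3.44%. Oas1a held 2 matches that overlap each other, starting 20 and 14 bases before the start, and Oas1g held the like pair at 18 and 12 bases. Oas3 held 1 match, 75 bases before the start. Oasl1 and Oasl2 held none in this window. The letters TTCNNNGAA of a gamma-activated site, which read the same on either strand, were found in Oas1a alone among the 5 members, 98 bases before the start, and in 2726 of all promoters, or 8.3%. A match of letters is a description and no measure of binding. The printed windows of Oas1a and Oas1g were identical at 108 of 118 positions when shifted by 2 bases. These windows lie before the start, so their likeness does not show whether the transcripts share reads. How the upstream counting divided UMIs between these genes was not tested.

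Before any comparison, 1 library stood apart. The table of RT2 lists 18605 genes by symbol only, where each of the others lists 32285, and no barcode of RT2 exceeded 11.953% mitochondrial UMIs, against highest values of 92.607% in NT, 91.457% in RT1 and 96.956% in RT3. RT2 was also the deepest library, with 108699844 UMIs over 14994 barcodes. NT held 69667759 UMIs over 10141 barcodes, RT1 78585759 over 15346 and RT3 85660188 over 15324. Pairs of libraries shared 182 to 277 barcode sequences, at most 1.847% of the smaller library. A mean ratio of Oas3 in macrophages, of Oasl1 in tumor cells or of Ifnb1 and Ifna2 in macrophages is therefore also given without RT2.

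Cells needed 200 or more detected genes and no more than 20% of UMIs from mitochondrial genes, and clusters were named from marker lists for 8 classes. A class name below means that its clusters are like those cells by these markers. For macrophages all 9 markers, C1qa, C1qb and Adgre1 among them, were highest in their own class, and for monocytes 6 of 8 and for tumor cells 5 of 7 were. Neither the OAS family nor the interferon lists described below contributed to the clustering. Macrophages numbered 701 in NT, 2644 in RT1, 2563 in RT2 and 1508 in RT3, at a median of 2956, 2623.5, 4275 and 2381.5 UMIs per cell. Monocytes numbered 566, 1942, 2144 and 1913, and tumor cells 5996, 5883, 4702 and 7181, in the same order. Clusters without a name held 2181, 3704, 4265 and 3649 cells and are not described further. These were clusters 1, 4 and 12, and the markers of each were nearest to tumor cells, though cluster 12 was led by macrophage genes such as Ccl8. Values of the tumor class thus may not cover all tumor cells of the samples. The UMIs of each class were added up per library and scaled to 1000000 UMIs of that class (CPM), and where an interval stands beside a value of NT it is an exact Poisson interval at 95% that covers counting error only.

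Oas3 was low but present in NT macrophages and higher in every RT library. It was counted at 24 UMIs in 19 of the 701 NT cells, which is 9.41 CPM (6.03 to 14.0). The level was 28.5 CPM in RT1, 39.8 in RT2 and 25.7 in RT3, from 249, 522 and 115 UMIs. All 3 RT libraries lay above the upper end of the NT interval, and RT2 was the highest. The log2 ratio of RT over NT was 1.57 in RT1, 2.05 in RT2 and 1.43 in RT3, with a mean of 1.68 ± 0.33 (SD over 3 RT libraries), or 3.21-fold, and a mean of 1.5 without RT2. These ratios, and all others below, share the same NT library, so its own error moves all of them together.

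The share of macrophages with an Oas3 UMI was 2.71% in NT, 6.58% in RT1, 13.2% in RT2 and 6.37% in RT3, in the order of depth among the RT libraries. With every cell thinned to 1000 UMIs, and shallower cells left out, the shares were 1.02%, 3.09%, 3.65% and 2.69%. Tumor cells, a class with little Oas3, gave 0.204%, 0.663%, 1.08% and 0.461% after the same thinning. The macrophage share thus stayed above that of tumor cells in each library, and above the NT share in each RT library.

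Oasl1, the member without synthetase activity, was abundant in macrophages already in NT. It stood at 141 CPM in NT, 237 in RT1, 233 in RT2 and 239 in RT3. The RT libraries were close to each other and all above NT, at a mean log2 ratio of 0.74 ± 0.02 (SD, n = 3). Oasl2 stood at 123 CPM in NT, 150 in RT1, 170 in RT2 and 139 in RT3, a mean log2 ratio of 0.31 ± 0.15. Its RT libraries were above NT too, by less than those of Oas3.

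Of the smaller synthetases, Oas2 was 7.84 CPM in NT macrophages (4.79 to 12.1), 10.4 in RT1, 16.8 in RT2 and 10.7 in RT3. RT1 and RT3 lay within the counting interval of NT, and RT2 alone was above it. Oas1a was 6.27 CPM in NT (3.59 to 10.2), 4.80 in RT1, 11.5 in RT2 and 5.59 in RT3, so that RT libraries fell on both sides of NT. Oas1g was counted at 4, 15, 46 and 6 UMIs, or 1.57, 1.71, 3.50 and 1.34 CPM, which is too few for a direction at this depth.

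To see how usual such ratios were, a rule of size was applied to all genes of a class. It asked for a log2 ratio of at least 1 in the same direction in all 3 RT libraries, among genes with a mean of at least 5 CPM and at least 10 UMIs. In macrophages 232 of 8651 genes, or 2.68%, were higher in RT by this rule and 193, or 2.23%, were lower. Oas3 was among the former, Oas1g did not pass the filter on low values, and the other 4 members met neither direction. The median log2 ratio was 0.62 over the 5 members that passed the filter and -0.01 over all genes. Since the family was chosen on this contrast, nothing is read from these counts. Among the 3 RT libraries, with NT left out, RT2 held the highest level for 4 of the 5 members and for 28.3% of all genes. The deeper sequencing of RT2 and its different table cannot be told apart from the tumor itself.

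**Figure D1:**
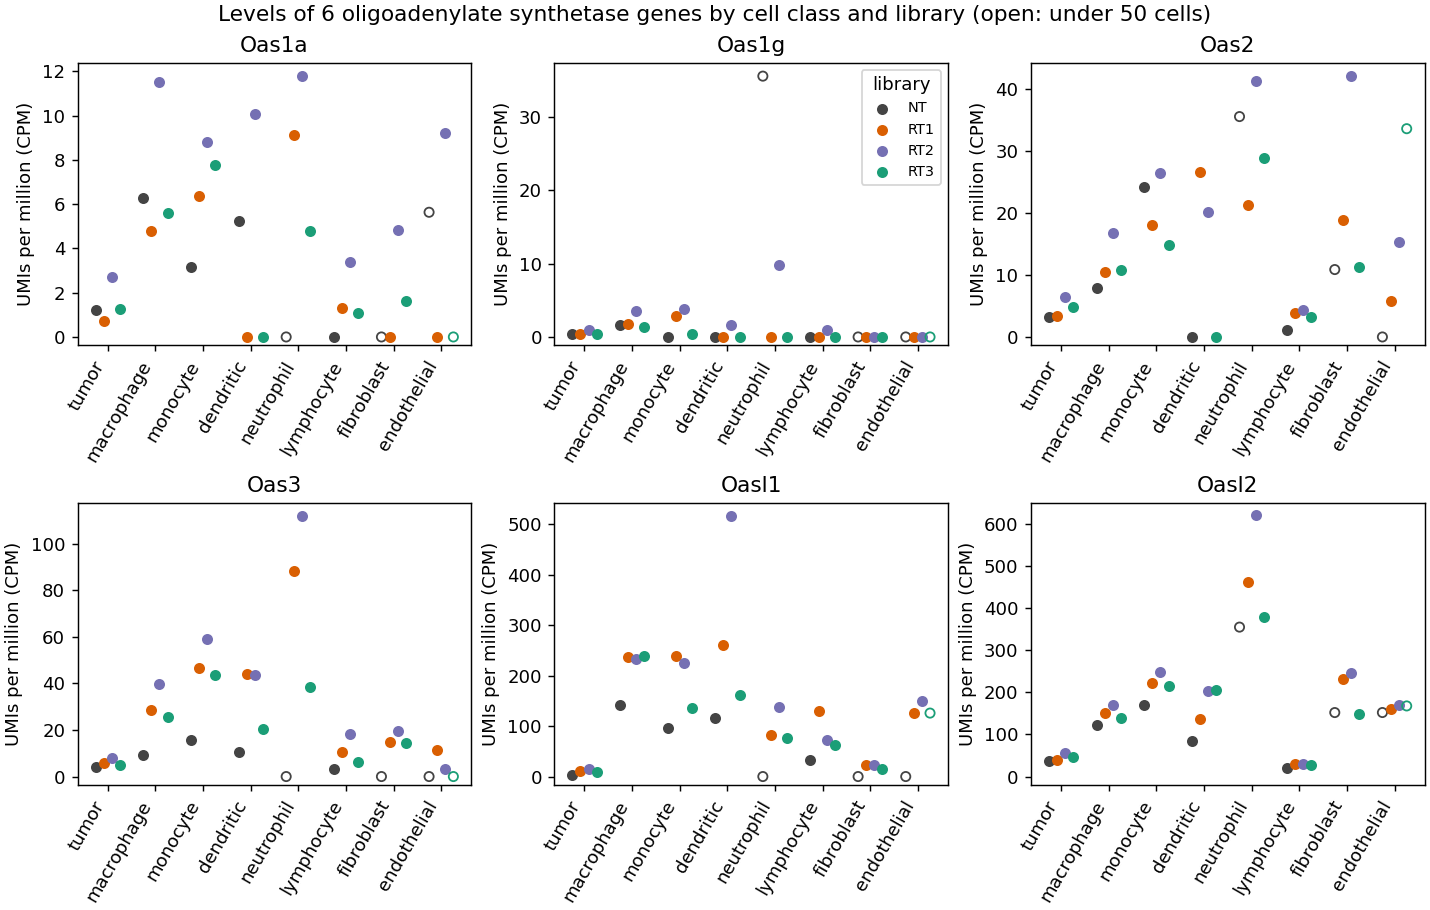
Level of each of the 6 genes in CPM (vertical axes, linear, 1 scale per gene) for 8 cell classes (horizontal axis) and 4 libraries (colors); open points are classes with under 50 cells in that library. Oas3 of macrophages is at 9.41 in NT and between 25.7 and 39.8 in the RT libraries, and Oasl1 is low in tumor cells in all 4 libraries.

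Monocytes repeated the pattern of Oas3 at a higher level. Oas3 was 15.8 CPM in NT monocytes (8.84 to 26, from 15 UMIs), 46.8 in RT1, 59.0 in RT2 and 43.7 in RT3. All 3 RT libraries lay above the NT interval, with log2 ratios of 1.52, 1.86 and 1.43 and a mean of 1.6 ± 0.22 (SD, n = 3). Cells with an Oas3 UMI made up 2.09% of NT monocytes and 4%, 5.49% and 4.46% of those of RT1, RT2 and RT3 after thinning to 1000 UMIs. With each cell thinned, the mean log2 ratio of the sums was 1.00 ± 0.26 (SD, n = 3) rather than 1.6, and it stayed above 0. At that mean and spread not every RT library reached the log2 ratio of 1 that the rule of size asks for.

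Oasl1 of monocytes was 95.8 CPM in NT, 240 in RT1, 225 in RT2 and 136 in RT3. The excess over NT was smaller in RT3 than in the other RT libraries, with log2 ratios of 1.32, 1.23 and 0.50. Oasl2 was 171 CPM in NT, 223 in RT1, 249 in RT2 and 215 in RT3, a mean log2 ratio of 0.42 ± 0.11. Both were above NT in all 3 RT libraries. The class was made up of clusters 5 and 8, and in cluster 8, with 34.8% of NT monocytes, Oasl1 of RT3 was below NT. It was 205 CPM there in NT, 244 in RT1, 287 in RT2 and 135 in RT3, and 47.2, 239, 211 and 137 CPM in cluster 5. Oas2 had no common direction, at 24.2 CPM in NT, 18 in RT1, 26.5 in RT2 and 14.8 in RT3, of which only RT3 was below the NT interval of 15.3 to 36.3. Oas1a was at 3 UMIs in NT monocytes, or 3.16 CPM (0.651 to 9.23), and at 6.39, 8.82 and 7.76 CPM in the RT libraries, all inside that interval. Oas1a was thus higher in all 3 RT libraries, but by less than the counting error of NT. Oas1g was at 0 UMIs in NT, which allows up to 3.16 CPM, and at 2.90, 3.80 and 0.353 CPM in RT1, RT2 and RT3. By the rule of size 347 of 8424 genes of monocytes, or 4.12%, were higher in RT, Oas3 being among them and no other member.

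In tumor cells it was Oasl1, not Oas3, that passed the rule of size. Oasl1 was 2.08 CPM in NT tumor cells (1.72 to 2.5, from 114 UMIs), 10.04 in RT1, 14.5 in RT2 and 9.35 in RT3. The RT libraries lay far above the NT interval, with log2 ratios of 2.27, 2.80 and 2.16 and a mean of 2.41 ± 0.34 (SD, n = 3), or 5.31-fold, and 2.21 without RT2. The level stayed below that of every other class in the RT libraries. The share of tumor cells with an Oasl1 UMI, thinned to 1000 UMIs per cell, was 0.255% in NT, 1.15% in RT1, 1.67% in RT2 and 0.952% in RT3. Of 9220 genes of tumor cells 101, or 1.1%, were higher in RT by the rule, and 0.0868% were lower.

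Macrophage markers in the tumor cells moved in the same direction as Oasl1. All 9 were detected in every library, summing to 6.28 CPM in NT, 31.0 in RT1, 41.4 in RT2 and 15.2 in RT3, with C1qb the most abundant in the RT libraries and Apoe in NT. Had Oasl1 been brought in with them in the ratio found in macrophages, its level would be 0.0994, 0.493, 0.592 and 0.271 CPM, which is below the measured level in each library. Monocyte markers, mostly Vcan, gave 0.997, 2.99, 3.34 and 1.29 CPM for Oasl1 in the same way, again below the measured level.

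By CPM the other members differed less in tumor cells. Oas3 was 3.94 CPM in NT, 5.91 in RT1, 8.00 in RT2 and 4.82 in RT3, a mean log2 ratio of 0.63 ± 0.37. The shares of tumor cells with an Oas3 UMI after thinning, 0.204% in NT against 0.663%, 1.08% and 0.461%, were further apart than these levels, and the 0.204% is 12 cells. Oasl2 was 36.0 CPM in NT, 39.2 in RT1, 57.1 in RT2 and 45.4 in RT3, a mean log2 ratio of 0.37 ± 0.27. Both were higher than NT in all 3 RT libraries and highest in RT2. Oas2 ranged from 3.23 CPM in NT to 6.50 in RT2. Oas1a ranged from 0.703 CPM in RT1 to 2.69 in RT2, with NT at 1.21 in between, and Oas1g stayed at or below 0.967 CPM.

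**Figure D2:**
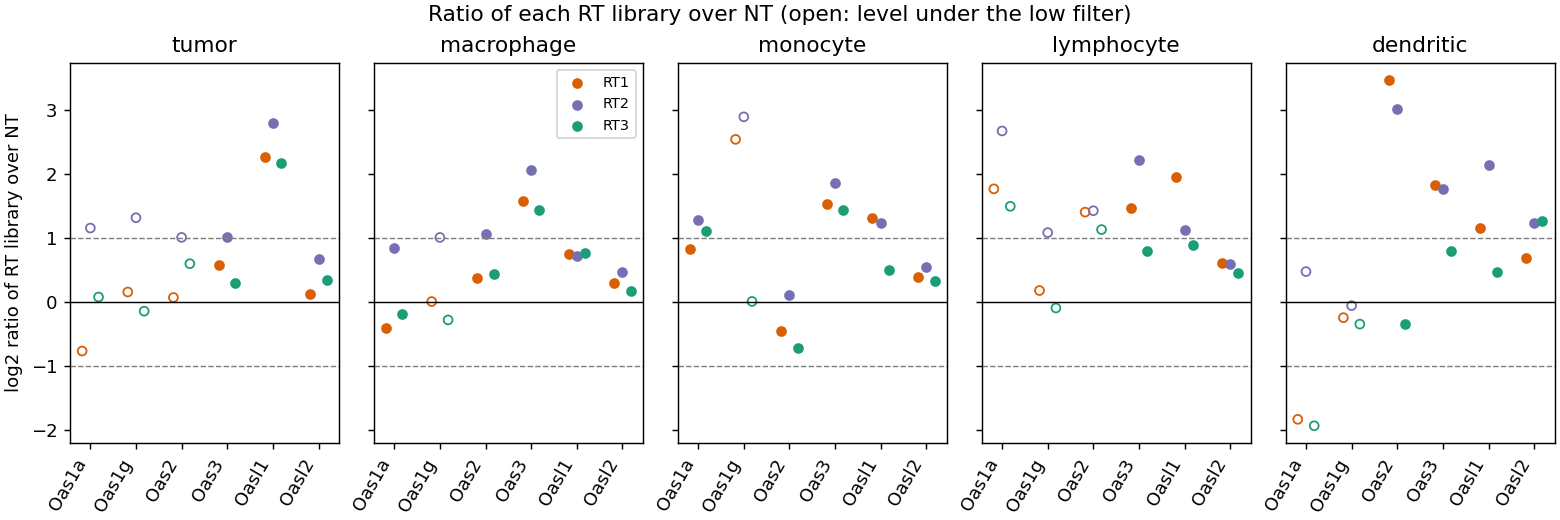
Log2 ratio of each RT library over NT (vertical axis) for the 6 genes (horizontal axis) in 5 cell classes with at least 50 cells in every library; open points mark genes under the filter on low values, and dashed lines stand at 1 and -1. Oas3 of macrophages and monocytes and Oasl1 of tumor cells lie above 1 in all 3 RT libraries.

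Smaller classes gave wider intervals. In dendritic cells, of which NT held 80, Oas3 was 10.5 CPM in NT from 2 UMIs (1.27 to 37.9), 44.2 in RT1, 43.7 in RT2 and 20.6 in RT3, the last inside that interval. Oasl1 was 115 CPM in NT, 261 in RT1, 517 in RT2 and 161 in RT3, and Oasl2 was 83.9 in NT, 137 in RT1, 203 in RT2 and 206 in RT3. Both were above NT in all RT libraries, and RT3 lay within the NT interval for Oasl1 (72.3 to 175). Markers of other myeloid cells were higher in RT dendritic cells too, those of monocytes at 493 CPM in NT and between 1507 and 1530 in the 3 RT libraries, with Plac8 or Thbs1 the most abundant, and those of macrophages at 110, 367, 217 and 219. In the ratios found in monocytes, their markers would bring at most 8.89 CPM of Oas3, 34.0 of Oasl1 and 37.6 of Oasl2 in a library, and macrophage markers at most 5.85 CPM of any of these. Oas2 of dendritic cells was at 0 UMIs in NT, 6 in RT1, 12 in RT2 and 0 in RT3.

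Lymphocytes carried little of the family apart from Oasl1. Oasl1 was 33.3 CPM in NT lymphocytes, 130 in RT1, 73.4 in RT2 and 62.4 in RT3, all RT libraries above the NT interval of 22.3 to 47.8. Macrophage markers in lymphocytes ran in the same order, summing to 72.4 CPM in NT, 542 in RT1, 396 in RT2 and 161 in RT3, with Trem2 alone of the 9 at 0, in NT, and C1qb the most abundant in the RT libraries. In the ratio found in macrophages they would bring 1.15, 8.63, 5.67 and 2.88 CPM of Oasl1. Monocyte markers would bring 14.1, 35.4, 35.4 and 13.3 CPM in the ratio found in monocytes. Each amount alone was below the measured level, but the amounts were not subtracted together. Their part in the excess over NT was not tested. Oas3 was 3.45 CPM in NT (0.711 to 10.1), 10.4 in RT1, 18.5 in RT2 and 6.46 in RT3. Oasl2 lay between 19.5 CPM in NT and 30.1 in RT2, within the NT interval of 11.4 to 31.3. No member of lymphocytes or of dendritic cells passed the rule of size, which 3.01% and 6.2% of their genes passed in the higher direction and 1.08% and 2.1% in the lower.

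Neutrophils, fibroblasts and endothelial cells had under 50 cells in NT, namely 20, 17 and 34. Neutrophils gave the highest Oas3 of any class in RT1 and RT2, at 88.2 and 112 CPM, with 38.5 in RT3, against 0 UMIs in NT, which allows up to 107 CPM. This class also carried tumor markers, at 1421 CPM in NT, 1762 in RT1, 1662 in RT2 and 2121 in RT3. Its monocyte markers summed to 3481, 6064, 4181 and 4453 CPM. Without the 8% highest doublet scores its UMIs were 136885 rather than 328679 in RT1 and 227203 rather than 508978 in RT2. In RT3 they were 97134 rather than 207936. The part of these in its OAS levels was not tested. For endothelial cells Oasl1 was at 0 UMIs in NT, which allows up to 16.9 CPM, and at 126 CPM in RT1, 151 in RT2 and 126 in RT3. Against the 3 counts that a count of 0 allows in NT, endothelial Oasl1 was at least 7.47-fold higher in RT1, 8.92-fold in RT2 and 7.44-fold in RT3, the last from 32 cells. Macrophage markers summed to 618 CPM in the endothelial cells of RT2, and in their ratio Oasl1 would be 8.85 CPM there. Oasl2 of endothelial cells was alike in all libraries, from 152 CPM in NT to 169 in RT2. Fibroblasts carried Oasl2 at 152 CPM in NT, 233 in RT1, 246 in RT2 and 150 in RT3.

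Cell classes were compared with each other within the RT libraries, a contrast other than the one that chose the family. It reuses the RT macrophage sums whose Oas3 was the reason given, so its Oas3 p-values are not independent of that choice. The edgeR quasi-likelihood test was fitted to the sums per library and class with the library as a block, and p-values were adjusted by Benjamini-Hochberg over 10287 genes. Against tumor cells, macrophages were higher in 4 of the 4 members tested, while 4359 of all genes, or 42.4%, were higher there and 8268, or 80.4%, differed in either direction, so that a difference here is the usual case. The difference was 5.03 for Oasl1 (log2, SE 0.23, adjusted p = 6.42e-17), 2.94 for Oas3 (SE 0.11, adjusted p = 6.04e-19), 2.32 for Oasl2 (SE 0.13, adjusted p = 4.79e-15) and 1.97 for Oas2 (SE 0.18, adjusted p = 2.27e-10). Each was higher in macrophages in 3 of 3 RT libraries. Oas1a and Oas1g did not pass the filter on low genes of this fit and were not tested in it.

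Monocytes were higher than macrophages in 3 of the 4 members tested, in a comparison where 1919 genes, or 18.7%, were higher in monocytes by edgeR and 4206, or 40.9%, differed in either direction. Oas3 was higher in monocytes by 0.56 (log2, SE 0.11, adjusted p = 0.000204), Oasl2 by 0.48 (SE 0.13, adjusted p = 0.00297) and Oas2 by 0.54 (SE 0.20, adjusted p = 0.0305). For Oasl1 the difference was -0.38 (SE 0.20, adjusted p = 0.128), and it did not pass the threshold of 0.05. The call for Oas2 was lost with the DESeq2 Wald test (adjusted p = 0.103), without RT1 (adjusted p = 0.168 in edgeR) and without RT2 (adjusted p = 0.202 in edgeR). With no replicate block all 3 calls were lost in edgeR, at an adjusted p of 0.158 for Oas3, 0.0925 for Oasl2 and 0.314 for Oas2. A call for Oasl1, lower in monocytes, was gained without RT2 (adjusted p = 0.0466 in edgeR) and with no filter on low genes (adjusted p = 0.0250 in edgeR).

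By mean level over the RT libraries the order of classes for Oas3 was neutrophils, monocytes, dendritic cells, macrophages, fibroblasts, lymphocytes, tumor cells and endothelial cells. Only between macrophages and fibroblasts did the ranges of neighbors in this order not overlap. For Oasl1 the order began with dendritic cells, macrophages and monocytes and ended with lymphocytes, fibroblasts and tumor cells, where only lymphocytes and fibroblasts were apart. For Oasl2 neutrophils came first, at 380 to 621 CPM, apart from monocytes at 215 to 249. The neutrophil class, first here and for Oas3, also carried tumor and monocyte markers, as given above. At the other end tumor cells, at 39.2 to 57.1 CPM, were apart from macrophages above them, at 139 to 170, and from lymphocytes below them, at 26.9 to 30.1. For Oas2, Oas1a and Oas1g nearly all neighboring ranges overlapped, the exceptions being macrophages above tumor cells for both Oas2 and Oas1g.

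Macrophages were not of 1 kind, so Oas3 was read in the clusters that make them up. Cluster 3 held most of them, 69.3% in NT, 76.5% in RT1, 72.1% in RT2 and 73.4% in RT3, and its Oas3 was 9.88, 26.9, 38.2 and 25 CPM. Cluster 13 held 14.7%, 4.88%, 8.93% and 11.2%, with Oas3 at 9.08, 30.0, 50.8 and 28.9 CPM. In both, every RT library was above NT. Cluster 10 had a median depth of 0.176 of that of its library. Ranked over all libraries, it was led by Cma1, a mast cell protease gene, followed by Mrc1 and Ccl8. It held 112 NT cells without an Oas3 UMI, which allows up to 32.2 CPM, and stood at 56.3 CPM in RT1 and 51.8 in RT2, above that bound, and at 31.3 in RT3, just under it. Oas1a differed more among these clusters than between groups, with cluster 13 at 30.3 CPM in NT, 32.3 in RT1, 45.6 in RT2 and 16.5 in RT3 and cluster 3 at or below 8.25 CPM in each. Oasl1 had no common direction in cluster 13, at 245 CPM in NT, 175 in RT1, 213 in RT2 and 355 in RT3. In clusters 3 and 10 Oasl1 of every RT library was above NT.

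Macrophages, monocytes and dendritic cells were then clustered again into 14 sub-clusters, 9 of which had at least 50 cells in every library. The genes of the OAS family were left out of this clustering, but other interferon-induced genes were not. Oas3 was higher than NT in all 3 RT libraries in 9 of the 9, with mean log2 ratios from 0.57 to 2.56 and a median of 1.41, each from only 2 to 7 Oas3 UMIs in NT. One of the 9, sub-cluster 4, was led by the mast cell protease genes Cma1, Cpa3, Mcpt4 and Tpsb2, ranked over all libraries. Mast cell markers, led by Cpa3, were found in macrophages of RT1 and RT3 only, and mostly in RT3, as given below. The lead genes thus need not describe the NT and RT2 cells of sub-cluster 4. Its Oas3 was 12.5 CPM in NT, 32.7 in RT1, 36.0 in RT2 and 24.4 in RT3. Oasl1 was higher than NT in all 3 RT libraries in 8 of the 9 and Oasl2 in 8, whereas Oas1a was so in 4, Oas2 in 2 and Oas1g in 2. These counts divide the UMIs on which the family was chosen, and all share the NT library. The share of all genes that did so was not computed, so nothing further is read from them.

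A pair of sub-clusters led by interferon-induced genes such as Ifit3, Ifit1bl1 and Cmpk2 carried the most Oas3. Sub-cluster 6, mostly monocytes, had Oas3 at 37.4 CPM in NT, 153 in RT1, 158 in RT2 and 124 in RT3. Sub-cluster 10, mostly macrophages and with 18 NT cells, had 110, 167, 190 and 147 CPM. These cells were few but held a large part of the Oas3 UMIs of their class. Sub-cluster 10 made up 2.43% of macrophages in NT, 4.43% in RT1, 6.16% in RT2 and 4.31% in RT3, and 41.7%, 32.5%, 37.5% and 34.8% of their Oas3 UMIs. Sub-cluster 6 made up 11.7%, 13.7%, 18.2% and 12.7% of monocytes and 26.7%, 43.5%, 49.9% and 37.9% of their Oas3 UMIs.

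Oasl1 in sub-cluster 6 was 196 CPM in NT, 841 in RT1, 600 in RT2 and 391 in RT3. Oasl2 in sub-cluster 6 was 533, 702, 593 and 655 CPM, high in all 4 libraries. In sub-cluster 10 Oasl2 was 647 CPM in NT and 689, 560 and 491 in the RT libraries, with no common direction. With both of these sub-clusters and a tumor sub-cluster of the same kind left out, an alternative chosen after the data were seen, the mean log2 ratio of Oas3 was 1.26 in monocytes and 1.84 in macrophages. Oas1a had its own peak elsewhere, in sub-cluster 8, which was led by ribosomal protein genes, Crip1, Cd52 and Ftl1. It stood there at 30.0 CPM in NT, 35.9 in RT1, 54.4 in RT2 and 23.4 in RT3.

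**Figure D3:**
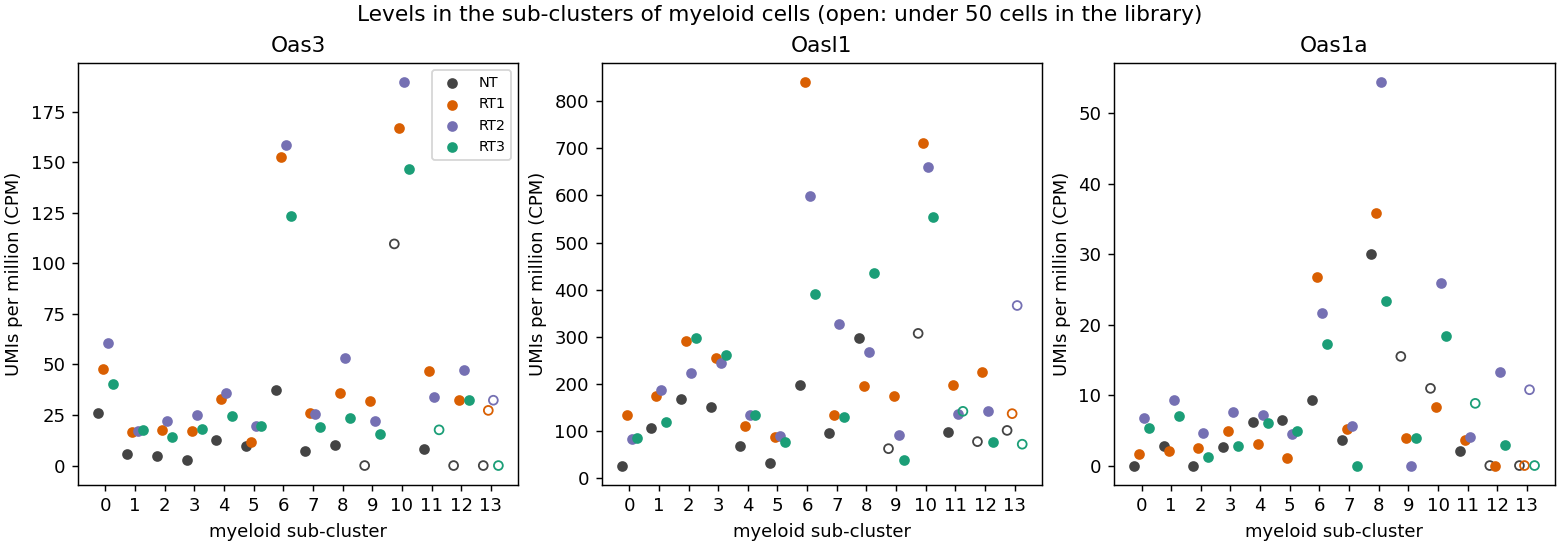
Levels of Oas3, Oasl1 and Oas1a in CPM (vertical axes, linear) in 14 sub-clusters of macrophages, monocytes and dendritic cells (horizontal axis) for 4 libraries (colors); open points have under 50 cells in that library. Oas3 is highest in sub-clusters 6 and 10 in every library, Oasl1 in these in RT1 and RT2 but in sub-clusters 10 and 8 in NT and RT3, and Oas1a in sub-cluster 8.

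Tumor cells gave 17 sub-clusters, 14 of them with at least 50 cells in every library. Sub-cluster 15, of 187 cells over all libraries, was nearest to macrophages by its markers and was led by Lyz2, Il1b and Srgn. The part of these cells in the Oasl1 level of the tumor class was not tested. By CPM Oasl1 was higher than NT in all 3 RT libraries in 13 of the 14, and in sub-cluster 11 it was at 0 UMIs in both NT and RT1. Mean log2 ratios over the 14 ran from 1.01 to 3.96, with a median of 2.28, the highest from 1 UMI in NT. Oas3 was so in 9, Oasl2 in 7 and Oas2 in 7. These counts share the NT library too, and the share of all genes was not computed for them either. Sub-cluster 8 was led by Iigp1, Igtp and Ifit3, genes known to follow interferon, and held 229 cells in NT, 184 in RT1, 323 in RT2 and 269 in RT3. Its Oasl1 was 3.88 CPM in NT, 64.6 in RT1, 41.8 in RT2 and 41.3 in RT3. Its Oas3 was 10.4, 30.3, 23.0 and 16.6 CPM, and its Oasl2 was 183, 300, 209 and 271 CPM. All 3 genes were thus higher there than in tumor cells as a whole, in NT as well, and Oasl1 had the largest ratio of RT over NT.

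Macrophages with an Oas3 UMI were also rich in Oasl2 and in other interferon-induced RNA, and they were deeper. In macrophages of RT1, the 174 cells with an Oas3 UMI had Oasl2 at 424 CPM and Ifit3 at 560, against 121 and 88.7 CPM in the 2470 cells without. Their median depth was 4164.5 UMIs against 2563. In NT the 19 macrophages with an Oas3 UMI had Oasl2 at 425 CPM against 110 in the others. The same order held in RT2, at 350 against 128 CPM, and in RT3, at 308 against 120 CPM. The part of depth in this difference was not tested.

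Enzymes around the family were followed as well. Enpp1 and Akap7, known to break down the adenylate chains among other substrates, were higher than NT in all 3 RT libraries of macrophages. Enpp1 stood at 17.3 CPM in NT, 40.9 in RT1, 30.0 in RT2 and 39.1 in RT3, a mean log2 ratio of 1.06 ± 0.24 (SD, n = 3). Akap7 stood at 11.4, 21.5, 21.4 and 20.3 CPM, a mean log2 ratio of 0.87 ± 0.04. Neither met the rule of size, since RT2 of Enpp1 and all RT libraries of Akap7 were below a log2 ratio of 1. Pde12, a phosphodiesterase that acts on the same chains, was lower in all 3, at 20.8 CPM in NT and 12.2, 12.1 and 11.6 in the RT libraries, a mean log2 ratio of -0.80 ± 0.03.

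The sensors of RNA and DNA had no common direction in macrophages. Of 12 genes that passed the filter none met the rule of size, 6 were higher and 3 lower in all RT libraries, as were 33.0% and 33.7% of all macrophage genes that passed it, and the median log2 ratio was 0.27. Tlr3, an endosomal receptor of double-stranded RNA, and Mavs, the adapter of cytosolic RNA sensors, had mean log2 ratios of 1.14 and 1.06. Cgas, the sensor of cytosolic DNA, and Ifih1, which encodes the RNA sensor MDA5, were lower in all 3 RT libraries, at -0.97 and -0.96. In monocytes, where 1.18% of the genes that passed the filter met the rule in the lower direction, Ifih1 did so, at 168 CPM in NT, 75.8 in RT1, 75.7 in RT2 and 76.9 in RT3.

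Interferon genes themselves were lower in RT macrophages. Ifnb1, which encodes interferon beta, stood at 248 CPM in NT, 62.2 in RT1, 9.67 in RT2 and 98.3 in RT3, a mean log2 ratio of -2.67 ± 1.77, or -1.66 without RT2. Ifna2 stood at 28.6, 3.89, 0.686 and 5.14 CPM, a mean log2 ratio of -3.55 ± 1.55, or -2.66 without RT2. Both met the rule of size in the lower direction, as did 2.23% of all genes, and they were the only ones of 7 ligand genes in all tables that passed the filter there. RT2, which had the highest Oas3 of macrophages, had the lowest Ifnb1. In monocytes Ifnb1 was at 69.5, 13.9, 8.13 and 14.8 CPM, likewise lower in all RT libraries.

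Receptors and signaling genes of the interferon pathway had a median log2 ratio near that of all genes in macrophages, at 0.03. Of 20 that passed the filter none met the rule in either direction, against 2.68% higher and 2.23% lower of all genes. In all RT libraries 8 were higher and 2 lower, against 33.0% and 33.7% of all genes. Irf7, which encodes a transcription factor whose messenger Oasl1 is known to hold back, was 37.6 CPM in NT, 57.4 in RT1, 123 in RT2 and 78.0 in RT3. Usp18, a feedback inhibitor of the interferon receptor, had a mean log2 ratio of 0.91, Ifngr1 0.88 and Jak2 0.60, and all of these were higher in each RT library. In monocytes 1 of 20 met the rule in the higher direction, against 4.12% of all genes there. It was Irf3, at 3.16 CPM in NT and 12.5, 16.9 and 13 in the RT libraries. In tumor cells 1 of 17 did, against 1.1% of all genes there. It was Usp18, at 3.12 CPM in NT and 6.84, 9.03 and 8.53 in the RT libraries.

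Other interferon-stimulated genes of macrophages were mixed. Of 49 genes 4 met the rule in the higher direction and none in the lower, against 2.68% and 2.23% of all genes, while 19 were higher in all RT libraries, near the 33.0% of all genes, and 10 were lower, against 33.7% of all genes, and the median log2 ratio was 0.18. The 4 were Ifit1bl1 at 2.62, the exonuclease gene Isg20 at 1.46, and the Schlafen genes Slfn4 at 1.35 and Slfn5 at 1.16. Rsad2, which encodes the antiviral protein viperin, was lower in every RT library, at 1404 CPM in NT, 456 in RT1, 525 in RT2 and 965 in RT3. Summed over the list, macrophages held 13773 CPM in NT, 8601 in RT1, 11640 in RT2 and 12114 in RT3, with NT the highest. Such a sum follows abundant genes such as Rsad2, whereas by gene the median log2 ratio was 0.18. The 6 members summed to 289 CPM in NT, 433 in RT1, 475 in RT2 and 421 in RT3, with NT the lowest. Most of that sum was Oasl1 and Oasl2, and the family was chosen on this contrast, so the sums are not set against each other. In monocytes 3 of 49 met the rule in the higher direction, Isg20, Xaf1 and Slfn5, against 4.12% of all genes there. In tumor cells 3 of 38 did, Ifit1, Ifit3 and Ifi44, against 1.1% of all genes. In tumor cells Ifit1, whose protein binds foreign RNA, was 10.2 CPM in NT, 26.5 in RT1, 40.5 in RT2 and 32.6 in RT3.

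**Figure D4:**
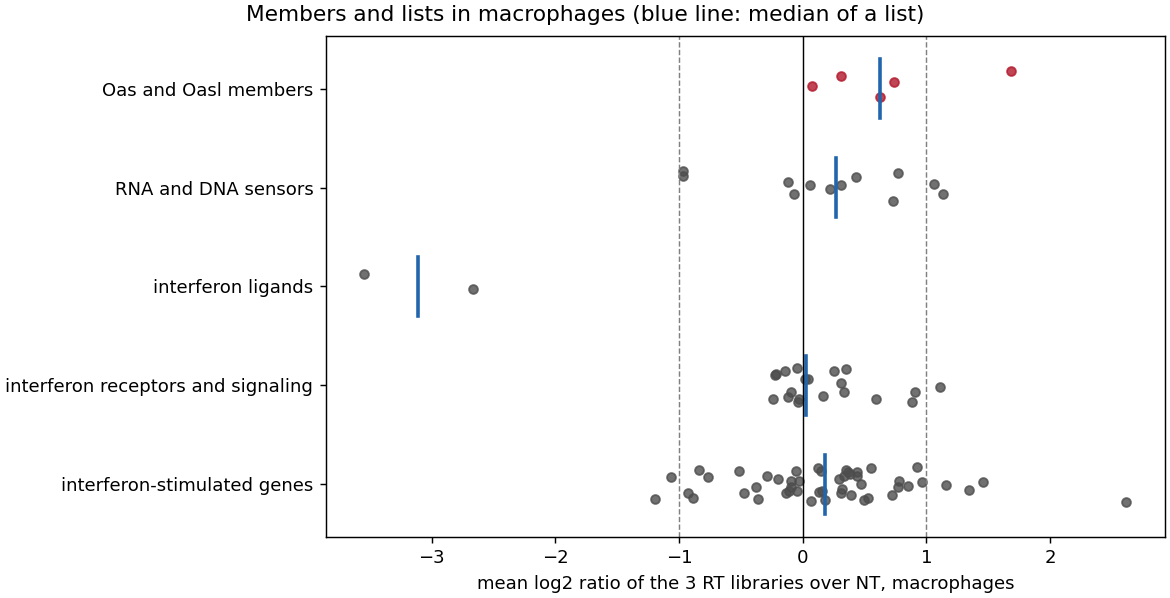
Mean log2 ratio of the 3 RT libraries over NT in macrophages (horizontal axis) for the members and 4 lists of genes around them (rows, 1 point per gene that passed the filter on low values; vertical jitter has no meaning); the blue line is the median of each row and dashed lines stand at 1 and -1. Oas3 at 1.68 is the highest of the 5 members shown, and both interferon ligands are below -2.

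In dendritic cells, where 6.2% of all genes were higher and 2.1% lower by the rule of size, the lists gave 1 of 11 sensor genes higher (Adar), 1 of 3 ligand genes (Ifna4, from 0, 1, 16 and 1 UMIs), and 7 of 49 interferon-stimulated genes, Ifit3 and Slfn4 among them, with 1 lower, Ifit1bl1. Several of these calls rest on few UMIs in NT, such as 1 for Adar and 0 for Slfn4. In lymphocytes 1 of 3 ligand genes, Ifna2, and 2 of 47 interferon-stimulated genes, Ifi204 and Slfn4, were higher by the rule, a share near the 3.01% of all genes for the latter.

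Markers of other cells were read beside the macrophage and monocyte values. Monocyte markers in macrophages summed to 2206 CPM in NT, 2609 in RT1, 2012 in RT2 and 3274 in RT3, with all 8 detected and Thbs1 or F13a1 the most abundant. In the ratio found in monocytes they would bring Oas3 to 3.40, 9.83, 11.9 and 8.28 CPM, below the measured level in each library. Neutrophil markers summed to 95.7, 365, 546 and 189 CPM, most of it Mmp9, and thus moved with Oas3. In the ratio found in neutrophils they would bring 1.22, 1.84 and 0.312 CPM of Oas3 in RT1, RT2 and RT3. In monocytes neutrophil markers summed to 51.6 CPM in NT, 265 in RT1, 284 in RT2 and 152 in RT3, again in the order of Oas3, and in the same way would bring 0.892, 0.952 and 0.250 CPM of it in the RT libraries. Tumor markers in macrophages summed to 163, 224, 243 and 327 CPM in NT, RT1, RT2 and RT3, with all 7 detected and Tpm1 the most abundant, and in the ratio found in tumor cells would bring at most 0.605 CPM of Oas3. Mast cell markers were at 0 in NT and RT2, 5.83 CPM in RT1 and 174 CPM in RT3, led by Cpa3, and their part in the RT3 values was not tested. B cell markers found in the tables (2 of 3) were at or below 0.229 CPM, and those of plasmacytoid dendritic cells (3 of 3) at or below 2.74 CPM in macrophages of each library.

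Apart from the 6 members, the tables of all 4 libraries listed Oas1c, Oas1d and Oas1e. In macrophages Oas1c was counted at 5, 26, 64 and 12 UMIs in NT, RT1, RT2 and RT3, or 1.96, 2.97, 4.88 and 2.68 CPM, of which only RT2 lay above the NT interval of 0.637 to 4.58. Oas1d was at 0 UMIs in macrophages of all libraries, and Oas1e at 1 UMI, in RT1.

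The genes whose level ran most like that of each member were sought over 28 sums per library and class, among 10121 genes, by Pearson's r of log2(CPM + 1). These sums share libraries and differ in depth, so r is a description and carries no p. For Oas3 they included Msrb1 (r = 0.89) and Pilra (0.85). For Oasl1 they were Nrros (0.94), Ucp2 (0.93) and Ifit2 (0.91), and for Oasl2 Il15 (0.93), Tnfrsf1a (0.92) and Klf3 (0.91). For Oas2 they were Tmcc1 (0.77), Flot1 (0.75) and Ier3 (0.74). Oas1a ran most like Ninj1 (0.83), Atp6v0c (0.79) and Neu1 (0.78), and Oas1g like Marco (0.75), Pgd (0.73) and Atp6v0c (0.71). Among members the highest r was that of Oas3 with Oasl2, at 0.76, and the lowest that of Oas2 with Oasl1, at 0.25.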

How the data were processed

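The authors generated UMI counts from SeekOne MM 3′ libraries with SeekOne Tools and deposited them unnormalized, with a separate table for each library. The submitters' processing notes also name Cell Ranger, STAR 2.5.1b, Subread 1.6.4, featureCounts and GRCm39 (mm39), without their roles. Libraries were joined on symbols. Genes outside the shared 18605 held at most 0.00185% of UMIs.

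Counts of kept cells were scaled to 10000 per cell, and 2000 variable genes were reduced to 30 principal components, integrated with a rewritten Harmony (theta 2, lambda 1, sigma 0.1, seed 1) and clustered with the Leiden algorithm (20 neighbors, resolution 0.8; leidenalg 0.10.2, scikit-learn 1.9.0, Python 3.11.15). Clusters were named for the class with markers nearest to their highest cluster, with at least 3 above the mean, a naming rule chosen after the clusters were seen. Doublets were not removed in the main analysis. Scrublet called none of 9976 cells in NT but 2.025% to 2.928% of cells in the RT libraries, and its calls were not used. Leaving out the 8% highest scores was an alternative.

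Ratios were log2 of (UMIs + 0.5) over the class total. edgeR 4.0.16 (R 4.3.3; TMM, filterByExpr, quasi-likelihood) compared classes in the RT libraries, and was tested on simulated counts. DESeq2 1.42.0 was an alternative. These p-values measure how class differences vary between 3 tumors once the library block has removed the common shift of each tumor. The spread was estimated with all classes of the fit, including those not compared. NT against RT was not tested, as NT is 1 library.

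The members and lists were chosen with earlier results of these data known. All members were described. Of each list at most the 4 genes with the largest mean ratio in macrophages were named, beside genes past the rule of size, those with opposite directions between classes and 3 genes of highest r per member. Ifit3 in cells with an Oas3 UMI was added after its values were seen. The results of 1 gene of these lists are not reported here.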

Additional observations from a re-analysis of the deposited data

Results flagged for a closer look

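No member of the OAS family was singled out. Among 25 genes examined for opposite directions in cell classes, 14 pairs of classes had every RT library above NT in the first class and below it in the other. None of these differences was tested, all share the NT library, and the smaller classes rest on few UMIs. The difference is given as the mean log2 ratio of the first class less that of the other.

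Rsad2 was higher in RT tumor cells and lower in macrophages (difference 2.28), monocytes (1.93) and lymphocytes (1.43), and dendritic cells differed from macrophages by 1.79. Ifnb1 was higher in RT dendritic cells, from 6 UMIs in NT, and lower in macrophages (3.83) and monocytes (3.71). Ifna2 was higher in lymphocytes, from 1 UMI in NT, and lower in macrophages (7.16). Ifit1bl1 was higher in macrophages and lower in lymphocytes (3.66) and dendritic cells (4.22), and monocytes differed from lymphocytes by 2.18 and from dendritic cells by 2.74. Tlr3 was higher in macrophages and lower in monocytes (2.01) and dendritic cells (1.93). Ifih1 was slightly higher in dendritic cells and lower in monocytes (1.24).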

How the results depend on the processing

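Oas3 of macrophages kept a mean log2 ratio over NT between 1.57 and 2.02 in 10 alternatives, the highest with each cell scaled to the same total (2.02), and between 1.5 and 1.81 with an RT library left out in turn. Genes higher in RT by the rule of size numbered 232, but 364 with cells thinned to 1000 UMIs, 667 without the filter on low genes, 660 when the rule asked for 1.5-fold, and 252 to 329 with an RT library left out. At 1.5-fold the members past the rule were 2, Oas3 and Oasl1, and with an RT library left out 1. Oasl1 of tumor cells stayed between 2.22 and 2.61 in 10 alternatives and between 2.21 and 2.53 with an RT library left out. Cell scaling moved Oas2 of macrophages to 0.16, and thinning moved Oas2 to 1.30 and Oas1a to 1.14, so no size is read from these.

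The RT libraries are blocks because their classes come from the same tumor. With no replicate block the members differing between monocytes and macrophages were 0 in edgeR rather than 3 (adjusted p = 0.158 for Oas3, 0.0925 for Oasl2, 0.314 for Oas2), with no filter on low genes 4, and with a library left out 2 to 3. Between macrophages and tumor cells the calls were 4 to 6 over 7 alternatives and 4 to 5 with a library left out. A single pooled NT library limits every ratio, and few UMIs limit Oas1a and Oas1g. The causes were not tested.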
